A study of Rattus norvegicus with 9 samples.

Results

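Amino acids cross the cell membrane through solute carrier proteins, and 10 genes for such carriers were followed here across cultured rat kidney fibroblasts. The genes were taken by symbol: Slc7a5, Slc3a2, Slc7a6, Slc7a1, Slc1a4, Slc1a5, Slc38a1, Slc38a2, Slc6a9 and Slc1a3. They are 10 of the 22050 genes of the table, and all 10 are among the 11473 genes with enough counts to be tested. Messenger RNA was sequenced from NRK-49F, an established line of rat renal fibroblasts, labelled wild type. All cells received TGF-β1, the cytokine that drives fibroblasts to make matrix, and the labels give an incubation of 48 h. Beside TGF-β1, the first group received vehicle, the next the compound YEXX-2A and the last the compound YWCH-4A, with 3 libraries in each. The compounds carry code names only, without a dose or a time of addition. Every library had TGF-β1, so none shows the unstimulated level of a transporter. NRK-49F is 1 cell line, so the libraries sample cultures of that line and not animals.

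As background, the carriers divide the work of supplying a cell. The LAT1 protein encoded by Slc7a5 exchanges intracellular amino acids for large neutral ones such as leucine, and it reaches the membrane bound to the glycoprotein CD98 that Slc3a2 encodes. Slc7a6 encodes another light chain of CD98, which exchanges cationic for neutral amino acids, while Slc7a1 encodes a carrier for arginine and lysine that needs no CD98. Slc1a4 and Slc1a5 encode sodium-dependent exchangers of small neutral amino acids, and the Slc1a5 protein is known for glutamine uptake. Slc38a1 and Slc38a2 encode carriers of system A, which loads the cell with glutamine and other small neutral amino acids. Slc6a9 encodes a glycine transporter, and glycine is the most frequent residue of collagen, the main product of an activated fibroblast. Slc1a3 encodes a carrier of glutamate and aspartate, best known from astrocytes. Many of these genes are known targets of the amino acid response through the factor ATF4, and Myc is known to raise Slc7a5 and Slc1a5 in other cells.

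Promoters are shown because ATF4 and Myc have known recognition motifs. Of the genes printed whole, Slc7a5 and Slc1a4 fell with YWCH-4A in the results below, and Slc38a2 did not. RefSeq promoter windows of build GRCr8, 300 bases from 250 before to 50 after a start site, were matched by symbol for 9 of the 10 genes, with 12 windows in all, and Slc1a5 was not matched. Capitals mark matches to either of 2 motifs searched on both strands: TGATGNAA, the core bound by ATF4 with C/EBP proteins, and CACGTG, the E-box bound by Myc and related factors. The windows of Slc7a5 (chr19:66872363-66872662, minus strand), Slc1a4 (chr14:98761513-98761812, minus strand) and Slc38a2 (chr7:129742570-129742869, minus strand) are printed whole. Stretches of 60 bases around the match are printed for Slc7a1 (chr12:11664432-11664491, plus strand) and Slc38a1 (chr7:129681510-129681569, minus strand). Each is read 5′ to 3′ on the strand of its gene.
Slc7a5: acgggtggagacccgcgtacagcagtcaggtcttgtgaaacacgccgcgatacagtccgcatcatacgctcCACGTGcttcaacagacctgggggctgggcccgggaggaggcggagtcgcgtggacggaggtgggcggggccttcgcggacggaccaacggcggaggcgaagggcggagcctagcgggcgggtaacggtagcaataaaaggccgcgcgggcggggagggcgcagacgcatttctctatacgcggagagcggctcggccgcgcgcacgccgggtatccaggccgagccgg
Slc1a4: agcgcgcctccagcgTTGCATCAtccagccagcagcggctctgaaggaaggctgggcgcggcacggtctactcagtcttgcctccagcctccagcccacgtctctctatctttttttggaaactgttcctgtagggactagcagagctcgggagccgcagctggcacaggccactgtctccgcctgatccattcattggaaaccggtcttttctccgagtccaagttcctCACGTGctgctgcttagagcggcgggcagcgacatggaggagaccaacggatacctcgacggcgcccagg
Slc38a2: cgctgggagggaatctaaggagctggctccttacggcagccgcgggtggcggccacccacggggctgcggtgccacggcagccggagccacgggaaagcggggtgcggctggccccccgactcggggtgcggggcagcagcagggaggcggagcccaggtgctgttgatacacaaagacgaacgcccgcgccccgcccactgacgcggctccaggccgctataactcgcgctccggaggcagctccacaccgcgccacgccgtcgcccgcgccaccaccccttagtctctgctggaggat
Slc7a1: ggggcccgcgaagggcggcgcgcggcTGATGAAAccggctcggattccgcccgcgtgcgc
Slc38a1: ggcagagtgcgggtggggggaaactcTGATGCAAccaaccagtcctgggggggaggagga

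The ATF4 and C/EBP core lay in the windows of 3 of the 9 genes matched. In Slc1a4 it began 235 bases before the start site on the opposite strand, where it reads TTGCATCA on the strand of the gene. In Slc38a1 it read TGATGCAA and began 142 bases before the start site, and in Slc7a1 it read TGATGAAA and began 30 bases before it. Of the 27457 genes of the promoter table, 4.16% had a window with this core (3.98% of all 33469 windows). The E-box lay in 2 of the 9 genes, 179 bases before the start site of Slc7a5 and 20 bases before that of Slc1a4, against 7.08% of all genes of the promoter table (6.42% of windows). The 2 motifs share no letters at any of these places, so no match was counted under both. The windows of Slc38a2, Slc3a2, Slc7a6, Slc6a9 and Slc1a3 held neither set of letters. Of these, Slc3a2 and Slc6a9 also fell with YWCH-4A, and a link between a motif and a change was not tested. A match is a string of letters in a window, and none was measured as a binding site here.

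Library totals ran from 13675880 to 21923706 estimated counts, and the 10 genes had 146 to 16726 counts per library, so counting error is small for all but Slc1a3. Levels of 1 gene across libraries are given as CPM, counts scaled to library size. The vehicle libraries varied most, with a biological coefficient of variation (the spread between libraries beyond counting) of 16.7%, against 7.40% with YEXX-2A and 3.67% with YWCH-4A. Vehicle replicate 2 stands apart from the other vehicle libraries, and without it the vehicle value is 4.68%. It was the highest of the 3 vehicle libraries for Slc7a5, Slc3a2, Slc7a1, Slc1a4, Slc1a5 and Slc6a9 and the lowest for Slc38a2, Slc7a6 and Slc1a3. Of 8 fibroblast markers, 6 were above 1 CPM, with Dcn and Thy1 below. Their summed level was 42963 to 55894 CPM with vehicle, 32340 to 35595 with YEXX-2A and 10638 to 11557 with YWCH-4A, most of it from Col1a1, while Pdgfra ran the other way, from 157 to 197 CPM with vehicle to 286 to 297 with YWCH-4A. Of 6 kidney epithelial markers, Epcam and Krt18 were at 0 and Krt8 alone passed 1 CPM, at a sum of 1712 to 2202, 1482 to 1567 and 896 to 945 CPM in the 3 groups. Of 4 endothelial markers, Pecam1 was not in the gene table, and the other 3 summed to at most 1.32 CPM. Of 6 leukocyte markers only Cd68 passed 1 CPM, with sums of 47.3 to 62.9, 41.7 to 45.1 and 66.2 to 73.7 CPM. The 13 mitochondrial messenger RNAs summed to 15872 to 21291, 23286 to 26471 and 17692 to 18764 CPM. The part of these differences in the results was not tested, and in bulk RNA fewer cells of a kind and less RNA per cell cannot be told apart.

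Levels between genes were compared as FPKM, fragments per kilobase of transcript scaled to library size, which corrects for length. With vehicle, Slc3a2 led at 258 ± 19.6 FPKM (SD, n = 3), ahead of Slc7a5 at 141 ± 14.4 and Slc38a2 at 122 ± 24.6, whose ranges overlapped. Slc1a5 at 79.0 FPKM and Slc1a4 at 70.9 followed with overlapping ranges, then Slc6a9 at 37.9, Slc7a1 at 36.1 and Slc38a1 at 33.9, neighbours whose ranges also overlapped. Slc7a6 at 9.94 and Slc1a3 at 3.88 FPKM were the least abundant, and their ranges were apart. With YEXX-2A the order changed in its upper part: Slc3a2 still led at 213 FPKM, Slc38a2 was next at 166 and Slc7a5 followed at 122, with no overlap between them. Slc1a5 (69.7) overlapped Slc1a4 (68.2), and Slc7a1 (32.5), Slc38a1 (31.8) and Slc6a9 (30.8) overlapped in turn, ahead of Slc7a6 (11.2) and Slc1a3 (5.90).

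With YWCH-4A the order was different again. Slc38a2 led at 162 ± 3.12 FPKM (SD, n = 3), above Slc3a2 at 134 ± 4.27, and Slc7a5 at 53.4 ± 1.83 now overlapped Slc1a5 at 55.4 ± 2.13. Slc1a4 (33.0) and Slc38a1 (31.8) overlapped, while Slc7a1 (20.7), Slc6a9 (13.9), Slc7a6 (9.65) and Slc1a3 (8.32) each stood apart from their neighbours. The summed level of the 10 genes was 773, 818 and 787 FPKM in the vehicle libraries and 733, 752 and 768 with YEXX-2A. It was 526, 512 and 528 with YWCH-4A, below every library of the other groups. The 10 genes made up 74.0 to 74.5% of the summed FPKM of 52 listed amino acid transporters with vehicle, 74.3 to 75.6% with YEXX-2A and 66.1 to 66.3% with YWCH-4A. Without Slc38a2 the sums of the other 9 genes were 638 to 725 FPKM with vehicle, 568 to 606 with YEXX-2A and 350 to 370 with YWCH-4A, so the 3 groups did not overlap.

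**Figure D1:**
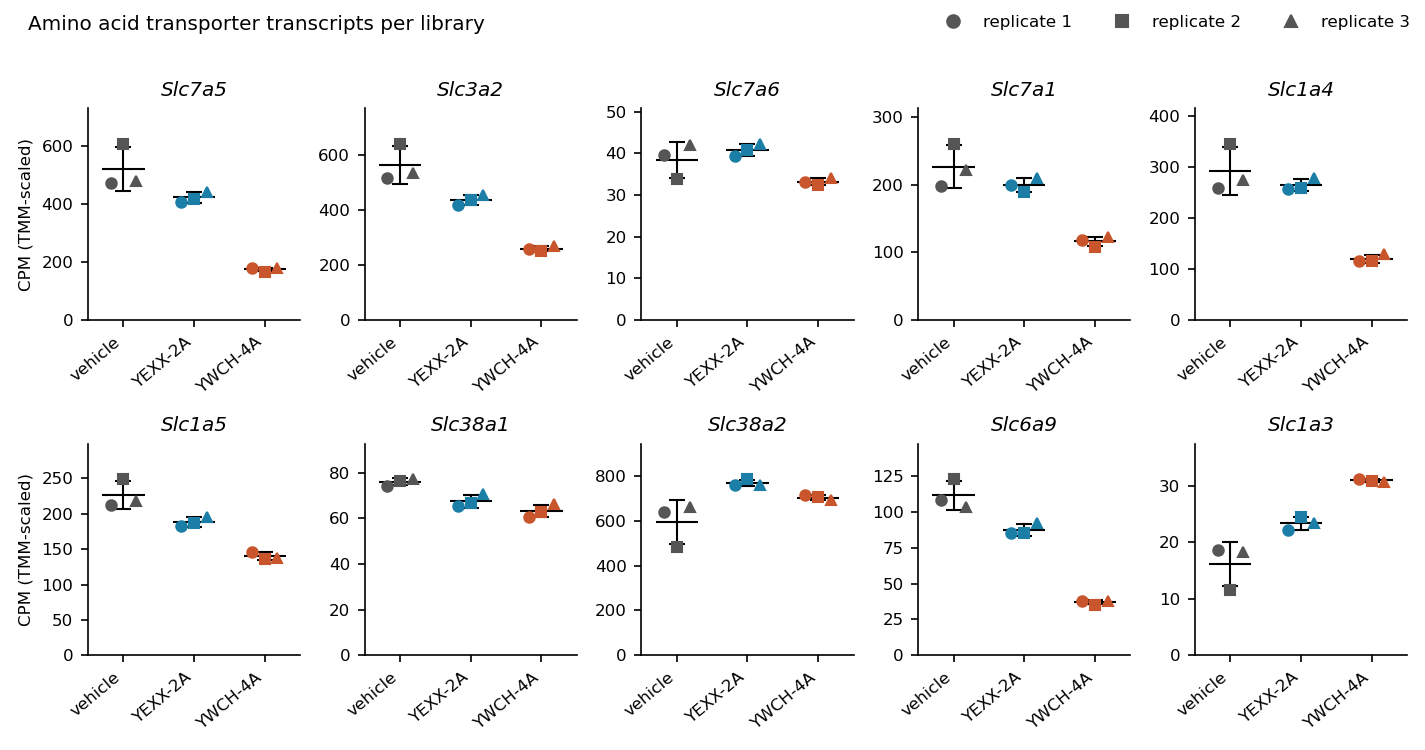
CPM (counts scaled to library size with TMM factors) of each of the 10 transporter genes by group, with 1 panel per gene and an axis from 0. Points are libraries with a shape per replicate number, and lines and bars are the mean and SD of 3 libraries. The YWCH-4A points lie below all others for Slc7a5, Slc3a2, Slc7a1, Slc1a4, Slc1a5 and Slc6a9, and above all others for Slc1a3.

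Against vehicle, YWCH-4A came with lower transcript levels for most of these 10 genes, which were chosen with earlier results of these data known. The transcript levels of 7 of the 10 genes fell, led by Slc6a9 and Slc7a5 at about the same size, that of Slc1a3 rose, and those of Slc38a2 and Slc7a6 did not pass the test. In all, 8 of 10 genes were called at an edgeR adjusted p under 0.05, against 30.6% of all genes tested (15.7% higher and 14.9% lower). The median log2 fold change of the 10 genes was -0.83, against 0.03 over all tested genes. Of the 15 other amino acid transporters tested, 6 were higher and 4 lower (median 0.15), against 15.7% and 14.9% of all genes. The 6 include Slc1a1, which passed the filter on low counts through the YWCH-4A libraries, so its call carries no weight. The 4 include Slc7a11, at a log2 fold change of -2.63. The vehicle and YWCH-4A libraries did not overlap for 9 of the 10 genes, against 46% of all genes tested. The changes with YEXX-2A are given beside them for each gene. Both comparisons share the vehicle libraries, so they are not independent of each other.

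Slc7a5, the LAT1 light chain, was at 472.55, 606.93 and 477.80 CPM in vehicle replicates 1 to 3. The values were 407.00, 416.09 and 442.41 CPM with YEXX-2A and 177.29, 166.28 and 177.97 CPM with YWCH-4A. The groups did not overlap, and the YWCH-4A libraries lay far below both others. With YWCH-4A Slc7a5 fell by 1.58 on the log2 scale (SE 0.10, edgeR adjusted p = 6.42e-07), which is 2.99-fold lower. With YEXX-2A it fell by 0.30 (SE 0.09, edgeR adjusted p = 0.0324). That smaller change was not called in 7 of 17 alternative settings, where the adjusted p reached 0.107, and it was -0.17 without vehicle replicate 2 (adjusted p = 0.00955).

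Slc3a2, which encodes the CD98 heavy chain that carries LAT1 to the membrane, was at 517.87, 642.66 and 534.58 CPM with vehicle. It was at 420.92, 437.45 and 457.06 CPM with YEXX-2A and at 257.05, 251.47 and 270.40 CPM with YWCH-4A. Again the groups were apart, in the same order as for its partner. Slc3a2 fell by 1.12 with YWCH-4A (SE 0.08, edgeR adjusted p = 2.98e-06; 2.18-fold lower) and by 0.37 with YEXX-2A (SE 0.08, adjusted p = 0.0118).

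Slc7a6, another light chain of CD98, did not pass the test against vehicle with either compound. Its values were 39.526, 33.745 and 41.985 CPM with vehicle, 39.345, 40.831 and 42.318 with YEXX-2A and 33.169, 32.323 and 34.081 with YWCH-4A. Vehicle replicate 2 lay within the YWCH-4A range, and the log2 fold change against vehicle was -0.21 (SE 0.09, edgeR adjusted p = 0.0992). Without vehicle replicate 2 it was -0.30 and was called (adjusted p = 0.00225). With YEXX-2A the value was 0.09 (SE 0.09, adjusted p = 0.451), and the libraries overlapped. It was 0.00 without vehicle replicate 2 (adjusted p = 0.997) and 0.15 without vehicle replicate 3 (adjusted p = 0.195).

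The balance between the CD98 chains was followed as a ratio. The ratio of Slc7a5 to Slc3a2 in FPKM was 0.542, 0.561 and 0.531 with vehicle, 0.574, 0.565 and 0.575 with YEXX-2A and 0.410, 0.393 and 0.391 with YWCH-4A. The YWCH-4A ratios were the lowest of the 9, with a log2 difference of -0.45 from vehicle and -0.52 from YEXX-2A. The ratio with YEXX-2A was 0.07 higher than with vehicle on the log2 scale. For each of these 3 comparisons the two-sided exact permutation p was 0.1, the smallest that 3 libraries against 3 allow (0.12 after Benjamini-Hochberg adjustment over 12 ratio tests). Summed over the 6 light chains that pair with CD98 (Slc7a5, Slc7a6, Slc7a7, Slc7a8, Slc7a10 and Slc7a11), the FPKM per unit of Slc3a2 was 0.671 to 0.683 with vehicle, 0.720 to 0.735 with YEXX-2A and 0.566 to 0.582 with YWCH-4A. Slc7a5 made up 79.1 to 82.8%, 78.1 to 78.9% and 68.9 to 70.4% of that light chain sum in the 3 groups. LAT1 thus remained the most abundant light chain transcript in every library, at a smaller share with YWCH-4A.

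**Figure D2:**
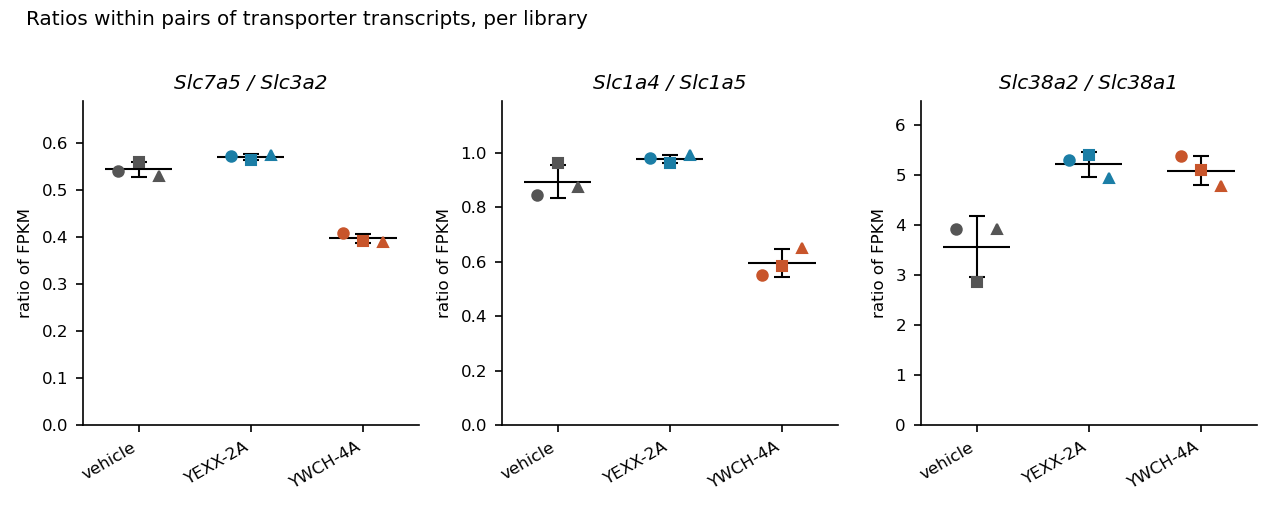
Ratio of FPKM within 3 pairs of transporter genes, per library, on axes from 0. Points are libraries with a shape per replicate number, and lines and bars are the mean and SD of 3 libraries. The ratios of Slc7a5 to Slc3a2 and of Slc1a4 to Slc1a5 are lowest with YWCH-4A, while that of Slc38a2 to Slc38a1 is higher with both compounds than with vehicle.

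Slc7a1, the carrier of arginine and lysine, was at 197.50, 260.30 and 220.93 CPM with vehicle and at 199.86, 188.44 and 209.07 CPM with YEXX-2A, where the libraries overlapped. With YWCH-4A it was at 117.38, 108.33 and 122.44 CPM, below all of these. It fell by 0.96 with YWCH-4A (SE 0.10, edgeR adjusted p = 3.14e-05; 1.95-fold lower). The change with YEXX-2A was -0.18 (SE 0.10, adjusted p = 0.144), with a 95% interval from -0.40 to 0.03. It was -0.07 without vehicle replicate 2 (adjusted p = 0.374) and -0.27 without vehicle replicate 1, where it was called (adjusted p = 0.0448).

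Both exchangers of small neutral amino acids fell with YWCH-4A, Slc1a4 by the larger value. Slc1a4 was at 257.93, 345.45 and 273.71 CPM with vehicle, 257.26, 258.05 and 278.54 with YEXX-2A and 116.02, 114.71 and 129.38 with YWCH-4A. The YWCH-4A libraries were the lowest, while vehicle and YEXX-2A overlapped. Slc1a4 fell by 1.28 with YWCH-4A (SE 0.10, edgeR adjusted p = 5.70e-06; 2.44-fold lower), and its change with YEXX-2A was -0.14 (SE 0.10, adjusted p = 0.271; 95% interval -0.37 to 0.08). That last value was -0.01 without vehicle replicate 2 (adjusted p = 0.926) and -0.23 without vehicle replicate 1 (adjusted p = 0.106).

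Slc1a5, the glutamine carrier of the same family, was at 211.89, 249.29 and 218.09 CPM with vehicle, 182.08, 186.66 and 195.46 with YEXX-2A and 146.19, 136.45 and 138.20 with YWCH-4A. Here all 3 groups were apart. Slc1a5 fell by 0.69 with YWCH-4A (SE 0.07, edgeR adjusted p = 4.05e-05; 1.61-fold lower) and by 0.27 with YEXX-2A (SE 0.07, adjusted p = 0.0203). The ratio of Slc1a4 to Slc1a5 in FPKM was 0.895 ± 0.0615 with vehicle, 0.979 ± 0.0152 with YEXX-2A and 0.596 ± 0.0505 with YWCH-4A (SD, n = 3). The log2 difference of that ratio was -0.59 for YWCH-4A against vehicle (exact permutation p = 0.1, n = 3 per group; adjusted 0.12) and 0.13 for YEXX-2A against vehicle (exact permutation p = 0.2; adjusted 0.218).

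Of the system A carriers, Slc38a2 rose with YEXX-2A and Slc38a1 fell with YWCH-4A. Slc38a2 was at 640.29, 481.54 and 664.11 CPM with vehicle, 760.78, 787.84 and 762.90 with YEXX-2A and 714.53, 705.13 and 694.01 with YWCH-4A. Every compound library lay above every vehicle library, and YEXX-2A above YWCH-4A. Slc38a2 rose by 0.37 with YEXX-2A (SE 0.10, edgeR adjusted p = 0.0218), or 0.24 without vehicle replicate 2 (adjusted p = 0.000467). With YWCH-4A its change was 0.24 (SE 0.10, adjusted p = 0.0967; 95% interval 0.02 to 0.47). It was 0.11 without vehicle replicate 2 (adjusted p = 0.0469) and 0.33 without vehicle replicate 3 (adjusted p = 0.0357), and on log2(FPKM + 1) values with limma it was 0.43 (adjusted p = 0.0229). In 13 of the 17 alternative settings it was not called, and the edgeR adjusted p reached 0.211 when a library was left out.

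Slc38a1, the other system A carrier among the 10 genes, had the smallest called change of the 10 with YWCH-4A. It was at 74.298, 76.520 and 77.192 CPM with vehicle, 65.271, 66.458 and 70.431 with YEXX-2A and 60.521, 62.933 and 66.036 with YWCH-4A. Both compound groups lay below vehicle and overlapped each other. It fell by 0.27 with YWCH-4A (SE 0.06, edgeR adjusted p = 0.00978), a call that needed YWCH-4A replicate 1 (adjusted p = 0.0576 in its absence) and was lost on FPKM values, where it was -0.09 (limma adjusted p = 0.212). With YEXX-2A its change was -0.17 (SE 0.06, adjusted p = 0.0561), and it was called at the same size without vehicle replicate 2 (adjusted p = 0.0329). The ratio of Slc38a2 to Slc38a1 in FPKM was 3.57 ± 0.610 with vehicle, 5.22 ± 0.246 with YEXX-2A and 5.09 ± 0.296 with YWCH-4A (SD, n = 3). The log2 differences from vehicle were 0.56 and 0.53 (exact permutation p = 0.1 each, n = 3 per group; adjusted 0.12). The vehicle ratios were 3.93, 2.87 and 3.92 in replicates 1 to 3, so the low value of vehicle replicate 2 adds to these differences.

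Slc6a9, the glycine transporter gene, fell most of the 10 with YWCH-4A, nearly level with Slc7a5. It was at 108.22, 123.10 and 103.43 CPM with vehicle, 85.102, 85.069 and 92.181 with YEXX-2A and 38.049, 35.332 and 37.708 with YWCH-4A. The 3 groups did not overlap. Slc6a9 fell by 1.59 with YWCH-4A (SE 0.08, edgeR adjusted p = 1.74e-07; 3.01-fold lower), and 1.29% of all tested genes had a log2 fold change at or below it. It fell by 0.35 with YEXX-2A (SE 0.08, adjusted p = 0.0110). That YEXX-2A call was lost in 1 of 17 settings, without YEXX-2A replicate 2 (adjusted p = 0.0563).

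Slc1a3, the glutamate and aspartate carrier, went the opposite way from a low level. It was at 18.558, 11.565 and 18.223 CPM with vehicle, 22.197, 24.407 and 23.378 with YEXX-2A and 31.152, 30.818 and 30.704 with YWCH-4A. The groups did not overlap and YWCH-4A was highest. Slc1a3 rose by 0.93 with YWCH-4A (SE 0.15, edgeR adjusted p = 0.000837; 1.91-fold) and by 0.53 with YEXX-2A (SE 0.15, adjusted p = 0.0245). Without vehicle replicate 2, its lowest library, these were 0.75 (adjusted p = 9.52e-07) and 0.34 (adjusted p = 0.00537).

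For YEXX-2A against vehicle, 6 of the 10 genes were called, 4 lower (Slc7a5, Slc3a2, Slc1a5 and Slc6a9) and 2 higher (Slc38a2 and Slc1a3). Over all tested genes 36.1% were called (17.6% higher and 18.5% lower), and the libraries did not overlap for 7 of the 10 genes against 51.6% of all. The median log2 fold change of the 10 was -0.18 against 0.01 over all genes. These calls were sensitive to single libraries: without YEXX-2A replicate 1 only Slc6a9 was called (12.6% of all genes), and without YEXX-2A replicate 2 edgeR called 0 of the 10 (9.03% of all genes), with 6 at an unadjusted p under 0.05. On all libraries, DESeq2 called 7 (40.4% of all genes), limma voom with library quality weights 7 (48.9% of all genes) and limma on FPKM 5 (32.4% of all genes). Without vehicle replicate 2, edgeR called 7 for YEXX-2A (35.1% of all genes) and 10 for YWCH-4A (39.4% of all genes). The direction of each of the 10 genes was the same as on all libraries in each of the 17 alternative settings, although Slc1a4 and Slc7a6 with YEXX-2A were near 0 without vehicle replicate 2.

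**Figure D3:**
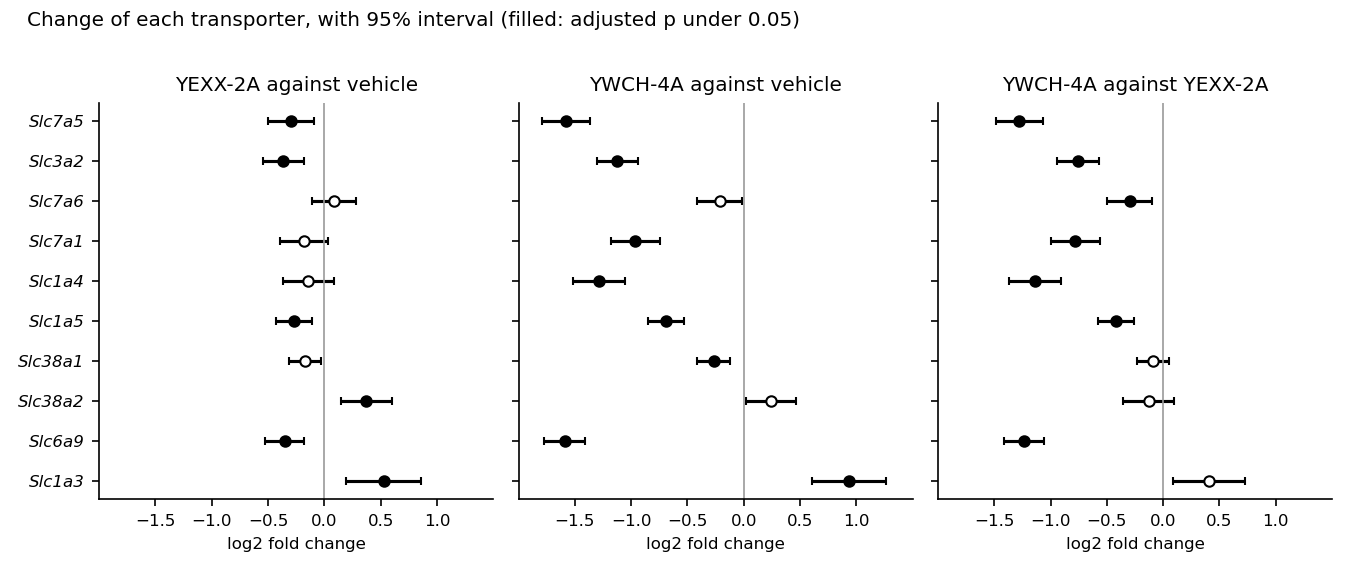
Log2 fold change of each of the 10 transporter genes in the 3 comparisons, from edgeR on all 9 libraries. Bars are 95% intervals, and filled points have an adjusted p under 0.05. Slc7a5, Slc3a2, Slc7a1, Slc1a4, Slc1a5 and Slc6a9 lie clearly to the left for YWCH-4A, while Slc38a2 and Slc1a3 lie to the right of 0 with both compounds.

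The compounds were also compared directly, without the vehicle libraries as reference. The spread behind these p-values was still estimated over all 9 libraries, vehicle included. Relative to YEXX-2A, 7 of the 10 genes were called with YWCH-4A, all of them lower, against 31.3% of all genes tested (16.2% higher and 15.1% lower). The median log2 difference was -0.59, against -0.00 over all genes, and the libraries were apart for 9 of the 10 genes against 58.9% of all. Slc7a5 was lower by a log2 difference of -1.28 (SE 0.09, edgeR adjusted p = 3.38e-06), Slc6a9 by -1.24 (adjusted p = 1.22e-06) and Slc1a4 by -1.14 (adjusted p = 1.69e-05). Slc7a1 at -0.78, Slc3a2 at -0.76 and Slc1a5 at -0.42 followed. Slc7a6 was at -0.30 (edgeR adjusted p = 0.0274), a call lost when any YEXX-2A or YWCH-4A library was left out (adjusted p = 0.0553 to 0.0944). It was also lost on log2(FPKM + 1) values (limma adjusted p = 0.162).

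For 3 genes the compounds could not be separated by the test on all 9 libraries. Slc38a1 had a log2 difference of -0.09 (95% interval -0.24 to 0.05; edgeR adjusted p = 0.300) and Slc38a2 one of -0.13 (95% interval -0.35 to 0.10; adjusted p = 0.362). Slc1a3 was at 0.41 (95% interval 0.09 to 0.72; adjusted p = 0.0539), with every YWCH-4A library above every YEXX-2A library. Without vehicle replicate 2, Slc38a2 (adjusted p = 0.00846) and Slc1a3 (adjusted p = 0.000104) were both called, among 9 of the 10 genes (51.6% of all genes). Over the 17 alternative settings, Slc38a1 was not called in 17, Slc38a2 in 14 and Slc1a3 in 10. The labels give neither compound a dose, so these differences hold for the amounts used.

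The 10 genes are spread unevenly over the distribution of all tested genes. With YWCH-4A, Slc6a9 and Slc7a5 were at percentiles 1.29 and 1.32 of the log2 fold change, Slc1a4 at 2.05, Slc3a2 at 2.70, Slc7a1 at 3.55 and Slc1a5 at 6.19. Slc38a1 at 19.8 and Slc7a6 at 24.0 were nearer the middle, and Slc38a2 at 72.3 and Slc1a3 at 96.0 lay on the other side. With YEXX-2A the 10 genes ran from percentile 13.2 for Slc3a2 to 85.5 for Slc1a3.

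**Figure D4:**
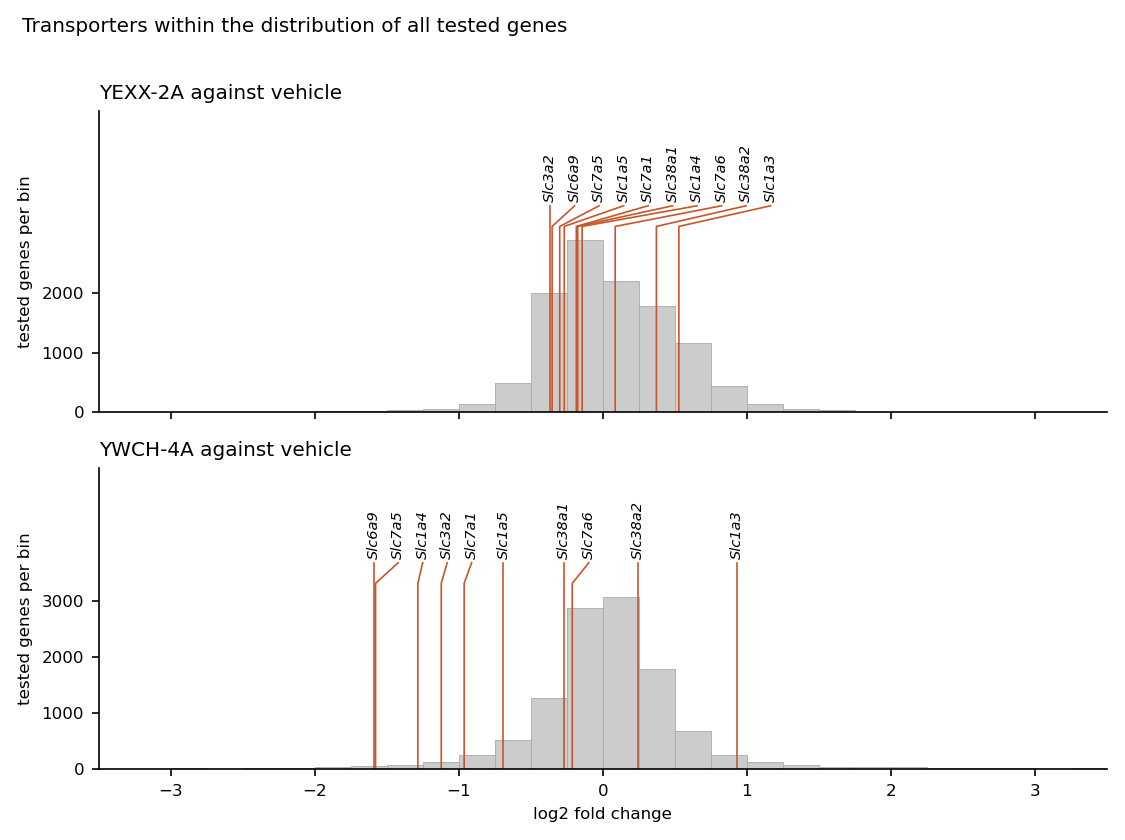
Number of tested genes (of 11473) per bin of log2 fold change against vehicle, for YEXX-2A above and YWCH-4A below, with the 10 transporter genes marked by lines; genes beyond the axis are not drawn. With YWCH-4A, 6 of the 10 lie in the left tail, and with YEXX-2A they lie among the bulk of genes.

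Of 42 other amino acid transporters, all were in the table and 15 had enough counts to be tested. With YWCH-4A 6 were higher and 4 lower (median log2 fold change 0.15), where 30.6% of all tested genes were called. With YEXX-2A 4 were higher and 5 lower (median -0.11), where 36.1% of all were called. The 15 include Slc1a1, counted as higher with YWCH-4A both against vehicle and against YEXX-2A. That gene passed the filter on low counts through the YWCH-4A libraries, so its calls carry no weight in these counts. Slc7a11, the light chain of the cystine and glutamate exchanger that also pairs with CD98, was at 38.9, 25.3 and 40.5 CPM with vehicle, 67.0, 66.7 and 50.7 with YEXX-2A and 6.24, 5.81 and 4.75 with YWCH-4A. It rose by 0.82 with YEXX-2A (SE 0.17, edgeR adjusted p = 0.00939) and fell by 2.63 with YWCH-4A (SE 0.20, adjusted p = 3.39e-06). Slc7a7, a further CD98 light chain for cationic amino acids, fell with both, by 0.50 (adjusted p = 0.00902) and 0.80 (adjusted p = 0.000213). Slc43a2, a CD98-independent carrier of large neutral amino acids, fell by 0.47 with YEXX-2A (adjusted p = 0.0107) and rose by 0.34 with YWCH-4A (adjusted p = 0.0247), a call lost in 7 of 17 settings. Slc66a1, a lysosomal exporter of cationic amino acids, rose by 0.50 with YWCH-4A (adjusted p = 0.00565), Slc38a10 fell by 0.52 (adjusted p = 0.00111), and the taurine carrier Slc6a6 fell by 0.32 with YEXX-2A (adjusted p = 0.00373). Between the compounds, 6 of the 15 were higher and 3 lower with YWCH-4A (median 0.13), against 31.3% of all genes called. The YEXX-2A count of 9 was 5 without YEXX-2A replicate 1 (12.6% of all genes called) and 3 without YEXX-2A replicate 2 (9.03% of all), where Slc43a2 was not called. The YWCH-4A count of 10 was 6 without any one YWCH-4A library, where 21.5%, 21.2% and 22.9% of all genes were called without replicates 1, 2 and 3.

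Amino acids that enter through these carriers are read at the lysosome, where Rag GTPases and their regulators recruit the kinase complex mTORC1. Of 36 genes of that machinery 32 were in the table and tested: 9 were higher and 4 lower with YWCH-4A (median log2 fold change 0.06), where 30.6% of all genes were called. With YEXX-2A 3 were higher and 7 lower (median -0.13), where 36.1% of all were called, so the list's count was no higher than the background. Sesn2, which encodes a leucine sensor and is itself a known ATF4 target, fell by 1.41 with YWCH-4A (SE 0.12, edgeR adjusted p = 7.60e-06), from 112, 154 and 128 CPM with vehicle to 44.9, 50.1 and 52.7. It fell by 0.48 with YEXX-2A (adjusted p = 0.0145). Depdc5 and Nprl2, subunits of the GATOR1 complex that restrains mTORC1, rose by 0.57 (adjusted p = 0.000191) and 0.42 (adjusted p = 0.00387) with YWCH-4A. With YEXX-2A both were at -0.08 (adjusted p = 0.370 and 0.482). Sesn3, of the same family as Sesn2, rose by 0.46 with YEXX-2A (adjusted p = 0.00444) and fell by 0.36 with YWCH-4A (adjusted p = 0.00742). Castor1, an arginine sensor, fell by 0.61 with YEXX-2A (adjusted p = 0.00667) and by 0.40 with YWCH-4A (adjusted p = 0.0248). Rptor, the mTORC1 scaffold, fell by 0.38 (adjusted p = 0.00993) and 0.25 (adjusted p = 0.0367). The YWCH-4A call was lost for Castor1 in 4 and for Rptor in 9 of 17 settings. Between the compounds 8 of the 32 were higher and 2 lower with YWCH-4A (median 0.15), a count near the 31.3% of all genes called. The 10 calls with YEXX-2A were 3 without YEXX-2A replicate 1 (12.6% of all genes) and 2 without YEXX-2A replicate 2 (9.03% of all), and the call of Sesn2 was lost in both. The YEXX-2A call of Rptor was lost without YEXX-2A replicate 2, and the YWCH-4A call of Sesn3 on FPKM values (limma adjusted p = 0.134). The 13 calls with YWCH-4A were 8, 8 and 7 without YWCH-4A replicates 1, 2 and 3 (21.5%, 21.2% and 22.9% of all genes), and the 10 between the compounds were 20 without vehicle replicate 2 (51.6% of all genes).

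Of 11 known regulators of such genes, all tested, 4 were higher and 4 lower with YWCH-4A (median log2 fold change -0.22; 30.6% of all genes called), and 1 higher and 4 lower with YEXX-2A (median 0.02; 36.1% of all). Atf4, the transcript of the amino acid response factor, was at 615, 737 and 659 CPM with vehicle, 571, 607 and 613 with YEXX-2A and 299.8, 302 and 307 with YWCH-4A. It fell by 1.15 with YWCH-4A (SE 0.07, edgeR adjusted p = 8.03e-07), while its change with YEXX-2A was -0.17 (SE 0.07, adjusted p = 0.0843). ATF4 is controlled in large part at translation, so its transcript level does not give the protein level. Myc fell by 1.40 with YWCH-4A (adjusted p = 3.60e-07) and by 0.49 with YEXX-2A (adjusted p = 0.00306). Trib3, a known ATF4 target that restrains it, fell by 2.64 (adjusted p = 2.74e-07) and 0.50 (adjusted p = 0.0190). Cebpb fell by 0.56 with YEXX-2A (adjusted p = 0.00668) and rose by 0.70 with YWCH-4A (adjusted p = 0.000599). Ddit3 fell with both, by 0.37 (adjusted p = 0.00856) and 0.50 (adjusted p = 0.000633). Eif2ak2, which encodes the RNA-activated kinase PKR, rose by 1.10 with YEXX-2A (adjusted p = 0.00253) and was at -0.05 with YWCH-4A (adjusted p = 0.832). Between the compounds 3 of the 11 were higher and 6 lower with YWCH-4A (median -0.46; 31.3% of all genes called). The YEXX-2A call of Trib3 was lost without YEXX-2A replicate 1 or 2 and with only the 2 groups compared.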

How the data were processed

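Per the labels' protocols, libraries were prepared from polyadenylated RNA (NEBNext Ultra). For each gene the deposited table gives, per the file headers, estimated counts and FPKM of every library. The submitters' processing notes name StringTie 1.3.1, RSEM, DESeq2 and edgeR. The aligner, build and annotation are not given in the sources used here. Of the estimated counts above 0, 8.87% were not whole, and all were rounded. Genes were kept with filterByExpr (minimum count 10), scaled with TMM factors and compared by edgeR 4.0.16's quasi-likelihood test, robust setting, under R 4.3.3 on all 9 libraries, two-sided, with Benjamini-Hochberg adjustment over 11473 genes and calls at an adjusted p under 0.05. DESeq2 1.42.0 and limma 3.58.1, the latter also on log2(FPKM + 1), were among the 17 alternatives. CPM use scaled library sizes. The labels state 3 biological replicates without saying what separates them, so a p-value reflects variation among these libraries, which may be technical. Reads of overlapping genes on opposite strands cannot be told apart. Of each other list, up to 6 called genes with at least 1 CPM were named by smallest p against vehicle. The 10 genes and the lists were chosen with earlier results of these data known. The count and FPKM table per group was not used here.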

Additional observations from a re-analysis of the deposited data

How the results depend on the processing

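Over the 17 alternatives the 10 genes kept their direction in all 3 comparisons. Counted per gene and setting, 21 calls were lost and 4 gained for YEXX-2A against vehicle, 2 and 6 for YWCH-4A against vehicle, and 7 and 10 for YWCH-4A against YEXX-2A. The counts of all genes called, 4145, 3516 and 3593 in that order, ranged from 1044 to 5308, 2450 to 4588 and 2225 to 6001 when a library was left out, and the transporters called from 0 to 7, 7 to 10 and 6 to 9. The lowest counts of genes in the first and last comparison came without YEXX-2A replicate 2, and the highest in the last without vehicle replicate 2. With only the 2 groups compared, 1408 genes, 2 of the 10 and 4 of the sensing list were called for YEXX-2A against vehicle. Between the compounds, that setting called 5903 genes, 9 of the 10 and 20 of the sensing list. Library quality weights gave 5590 genes for YWCH-4A against vehicle, and 6457 genes and 21 of the sensing list between the compounds, where FPKM values gave 18. Leaving out a library gave 3 to 9 of the other transporters and 2 to 12 of the sensing list for YEXX-2A, 6 to 10 and 7 to 16 for YWCH-4A, and 7 to 20 of the sensing list between the compounds. The share of higher calls moved from 48.8 to 62.0%, 51.2 to 78.1% and 51.7 to 72.6% on FPKM values, which shift the median of all genes by 0.14 for YWCH-4A against vehicle. Same-numbered libraries did not deviate together (correlations -0.228 to 0.087), so the numbers are not treated as pairs. With a replicate block, 1931, 2787 and 2612 genes and 3, 8 and 7 of the 10 were called, and 5 of the sensing list for YEXX-2A. Not every library correlated best with its own number. The counts over lists were added after seeing the data. The cause of these shifts was not tested. Leaving out a library also means fewer libraries in the fit. Without vehicle replicate 2, more genes were called between the compounds (6001 against 3593). The vehicle coefficient of variation was 16.7% with that replicate and 4.68% without it. Depth limits Slc1a3 most.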

Other observations

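Over the 9 libraries, the tested genes with at least 5 CPM (9437 genes) whose log2 CPM ran most like that of Slc7a5 were the lysyl oxidase family gene Loxl3 (Pearson r = 0.999, Spearman rho = 0.983), Ajuba (0.998, 0.967), the glycine transporter gene Slc6a9 (0.997, 0.950), the collagen gene Col1a1 (0.997, 0.983) and Trib3 (0.997, 0.983). Col1a1 had a mean of 32188 CPM with vehicle, 21958 with YEXX-2A and 6464 with YWCH-4A. For Slc38a2 they were Ssr3 (0.997, 0.983), Tspyl1 (0.997, 0.983), Xpo7 (0.995, 0.967), Cd164 (0.994, 0.983) and Lypla1 (0.993, 0.983). The 9 points share 3 groups and their libraries, so these values describe the order of the groups and of vehicle replicate 2 and are given without a test.

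Slc1a1, which encodes a glutamate carrier and was singled out after its values were seen, was at 0.0651 to 0.317 CPM with vehicle, 0.136 to 0.370 with YEXX-2A and 1.94 to 2.67 with YWCH-4A. It had 154 counts over all 9 libraries and passed the filter on low counts through the YWCH-4A libraries, so no fold change or test is given for it. The counts and medians of the 15 other transporters tested include it.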
